A study of Homo sapiens with 8 samples.

Results

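The proteasome genes were taken as all gene symbols in the deposited count table that begin with PSMA, PSMB, PSMC, PSMD, PSME, PSMF or PSMG followed by a number, without the immunoproteasome genes PSMB8, PSMB9 and PSMB10. This gave 45 of the 23346 symbols, and 43 of the 45 passed the filter on low counts. RNA had been sequenced from 22Rv1, an established human prostate cancer cell line, after transfection. One group received a mimic of miR-194, and the other a negative control RNA. The mimic is a small RNA that supplies the cell with the microRNA miR-194, which represses transcripts that carry a match to its seed. Both RNAs were used at 20 nM on cells in suspension, the cells were collected after 36 h, and each group had 4 libraries. The measurements come from a single line, and untransfected cells were not analysed here, so a rise with the mimic cannot be told apart from a fall with the control RNA. Nothing in the labels tells whether replicates came from separate cultures, and the p-values cover the spread among these 8 libraries alone.

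The proteasome is the protease complex that degrades proteins tagged with ubiquitin. Its core is a barrel in which outer alpha rings gate the entrance and inner beta rings hold the protease sites, and a regulatory particle on its end recognises ubiquitin, unfolds the substrate with a ring of ATPases and feeds it into the barrel. Dedicated chaperones build both parts, and when proteasome activity is short the transcription factor NFE2L1 is known to raise the subunit genes together. Cancer cells, prostate cancer lines among them, are known to depend on this complex for protein turnover.

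The libraries held 32485036 to 47248241 counts. CPM below are counts scaled to a common library total with the normalisation described under processing, log2 fold changes are mimic minus control, and each is given with its standard error (SE). A gene is said to have risen or fallen where its adjusted p in edgeR's quasi-likelihood test was below 0.05. The 8 luminal prostate markers examined all averaged at least 1 CPM, with sums of 4618 to 4942 CPM with the mimic and 4453 to 4671 CPM with the control RNA. The 3 basal and 3 endothelial markers were near 0 in every library. Of 4 immune markers CD68 alone averaged at least 1 CPM, and the list summed to 5.83 to 8.42 CPM with the mimic and 3.61 to 4.48 CPM with the control. The 4 fibroblast markers summed to 47.5 to 56.2 and 44.2 to 51.9 CPM, most of it LUM, and the part of these lists in the results was not tested. Replicates 1 and 2 of both groups differed from replicates 3 and 4. The median log2 difference between these pairs of replicates was 0.0020 for the proteasome genes and -0.0019 over all tested genes. In a quasi-likelihood test with the group as a term, 1 of the 43 was higher and 3 were lower in replicates 3 and 4 (adjusted p below 0.05). Of all 14977 tested genes, 1522 were higher and 1760 lower. In bulk RNA, fewer cells of a type and less RNA per cell cannot be told apart.

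Small and mixed changes were found across the proteasome genes. Of the 43 tested, 15 rose, 7 fell and 21 did not pass the test. The shares were 34.9% higher and 16.3% lower, where 38.1% of all 14977 tested genes were called, 18.3% higher and 19.9% lower. Since the proteasome genes are abundant and so measured precisely, a closer background is the 9375 tested genes with at least the mean CPM of the least abundant tested proteasome gene, 13.1 CPM. Of those genes 46.3% were called, 23.7% higher and 22.6% lower. The share of proteasome genes that fell therefore lay below both backgrounds and the share that rose above both, with no test of that difference. Counts for parts of the complex and for related lists below have these same shares as background, and none was tested against them. Mimic and control libraries did not overlap for 22 of the 43 genes, 51.2%, beside 36.9% of all tested genes and 44.7% of those at or above 13.1 CPM. That limit is a floor, and the genes above it were not matched to the proteasome genes in abundance.

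The sizes of the changes were modest. The median log2 fold change of the 43 genes was 0.08, beside 0.0017 over all tested genes and 0.0172 over those at or above 13.1 CPM. No tested proteasome gene changed as much as 2-fold, and 41 of the 43 stayed within 0.3 on the log2 scale. Standard errors ran from 0.03 to 0.07 with a median of 0.04, beside a median of 0.07 over all tested genes. As a group the proteasome genes took 0.744% ± 0.0108 of the counts with the mimic and 0.729% ± 0.0104 with the control RNA (SD, n = 4 each). The lowest mimic share was 0.732% and the highest control share 0.736%, so the groups overlapped in this sum.

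**Figure D1:**
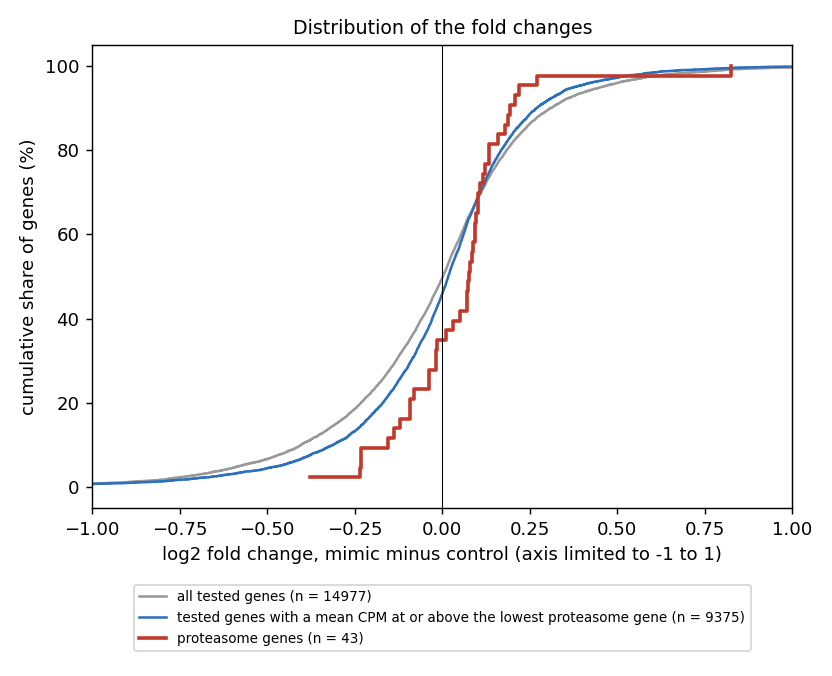
Cumulative share of genes (%) against the log2 fold change, mimic minus control, for the 43 tested proteasome genes, all 14977 tested genes and the 9375 tested genes at or above 13.1 CPM; the axis is limited to -1 to 1. The proteasome curve is steeper and crosses the middle at 0.08, and PSMG4 forms the last step at 0.82.

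Proteasome genes with no usable signal were the 2 tissue-restricted forms. PSMA8, the alpha subunit of the testis, had 0 counts in all 8 libraries. PSMB11, the beta subunit of the thymus, had 0 or 1 count per library. Both stayed below the floor of 3 counts, which corresponds to 0.0638 to 0.0930 CPM in these libraries and covers counting error only.

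The alpha ring, which forms the gate of the core, had 2 genes that rose and none that fell among its 7. PSMA4 read 246, 245, 234 and 247 CPM in control replicates 1 to 4 and 289.7, 274, 282 and 287 CPM in mimic replicates 1 to 4 (means 243 ± 6.03 and 283 ± 6.83, SD, n = 4 each). All 4 mimic values lay above all 4 control values, and the log2 fold change was 0.22 ± 0.03 (SE, adjusted p = 0.000252). PSMA5 rose by 0.13 ± 0.04, from 148 ± 2.51 to 162 ± 6.83 CPM (adjusted p = 0.0135), again with no overlap. The other alpha genes, PSMA1, PSMA2, PSMA3, PSMA6 and PSMA7, had log2 fold changes between -0.04 and 0.08. Of these, PSMA1 passed only when mimic replicate 2 was left out (adjusted p = 0.0373).

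Of the 7 genes of the beta ring none rose, with 3 fold changes above 0 and 4 below. The ring had 3 that fell, 42.9%, beside 22.6% of tested genes at or above 13.1 CPM. Its protease sites are carried by PSMB6 (caspase-like), PSMB7 (trypsin-like) and PSMB5 (chymotrypsin-like). PSMB6 measured 197, 200.1, 185 and 199 CPM in control replicates 1 to 4 and 172, 159.5, 166 and 166 CPM in the mimic replicates (means 195 ± 6.85 and 166 ± 5.30), a log2 fold change of -0.23 ± 0.04 (adjusted p = 0.000432). PSMB7 measured 162, 158, 158 and 167 CPM in the controls and 146, 134, 132 and 138 CPM with the mimic (161 ± 4.39 and 137 ± 6.35), also -0.23 ± 0.04 (adjusted p = 0.000728). For both genes every mimic library was below every control library. PSMB5, the main target of proteasome inhibitor drugs, measured 175, 179, 180.4 and 178 CPM in the controls and 181, 169, 182 and 185 CPM with the mimic. Those values overlapped throughout, and the log2 fold change was 0.01 ± 0.04 (adjusted p = 0.858).

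Among the beta subunits without a protease site, PSMB1 fell from 222 ± 6.66 to 204 ± 5.05 CPM, by 0.12 on the log2 scale (adjusted p = 0.0142). Without control replicate 1 its adjusted p was 0.0538. PSMB3 and PSMB4 had log2 fold changes of 0.10 each and did not pass (adjusted p = 0.0802 and 0.0756), but passed with the replicate number as a block (adjusted p = 0.0315 and 0.0212). They also passed without mimic replicate 2 (adjusted p = 0.0319 and 0.0295). PSMB2, which carries a miR-194 seed match described below, measured 261, 261, 259.7 and 272 CPM in the controls and 255, 250.3, 261 and 259.7 CPM with the mimic. Its groups overlapped, with a log2 fold change of -0.04 ± 0.03 (adjusted p = 0.347).

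**Figure D2:**
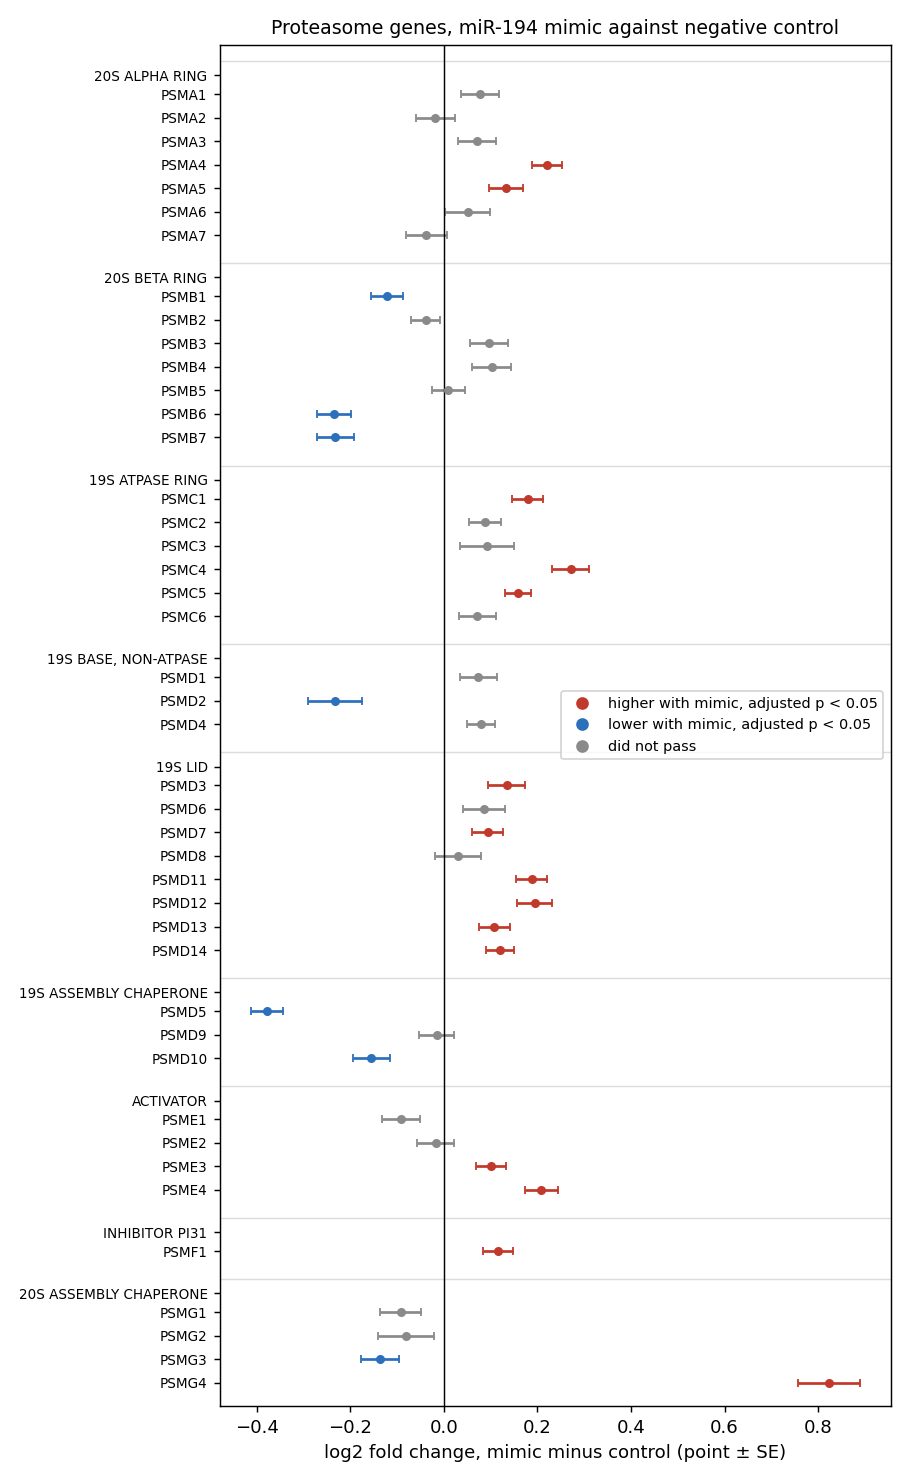
Log2 fold change, mimic minus control (point, bar ± SE), of each of the 43 tested proteasome genes, grouped by role in the complex and coloured by the test. The ATPase ring and the lid lie right of 0, the beta ring is split, and PSMG4 at 0.82 and PSMD5 at -0.38 are the extremes.

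The regulatory particle, without its subunits ADRM1 and SHFM1 that are given below, moved mostly upward. Of the 17 genes of its ATPase ring, base and lid among the 43, 9 rose and 1 fell, 52.9% and 5.88%. Over the 9375 tested genes at or above 13.1 CPM these shares were 23.7% and 22.6%. Of the 17 fold changes 16 were above 0, beside 5067 of those 9375 genes and 7537 of all 14977 tested genes. All 6 genes of the ATPase ring, the motor that unfolds substrates, had positive log2 fold changes (median 0.13), and 3 of them rose. PSMC4 measured 145, 143, 130.1 and 139.8 CPM in control replicates 1 to 4 and 173, 169, 162 and 168 CPM in the mimic replicates (139 ± 6.55 and 168 ± 4.59). Every mimic library was higher, and the log2 fold change was 0.27 ± 0.04 (adjusted p = 0.000267). PSMC1 rose by 0.18 ± 0.03, from 151 ± 3.19 to 171 ± 5.0 CPM (adjusted p = 0.00134). PSMC5 rose by 0.16 ± 0.03, from 238 ± 2.98 to 266 ± 4.21 CPM (adjusted p = 0.00105). The gene FTSJ3 overlaps PSMC5 on the opposite strand and rose as well, from 120.3 ± 3.18 to 151 ± 1.2 CPM, and the strand setting of the counting is not given.

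The remaining ATPases did not pass. PSMC6, another gene with a seed match, measured 142, 139, 132 and 139.9 CPM in the controls and 151, 137, 144 and 149 CPM with the mimic. These groups overlapped, with a log2 fold change of 0.07 ± 0.04 (adjusted p = 0.172). PSMC2 (0.09) and PSMC3 (0.09) passed with the replicate block (adjusted p = 0.0208 and 0.0173), and PSMC2 also without mimic replicate 2 (adjusted p = 0.0476) or control replicate 4 (0.0413). PSMC3 was lower in replicates 3 and 4 than in 1 and 2 of both groups (log2 difference -0.17).

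In the non-ATPase part of the base, PSMD2, a scaffold that docks ubiquitin carriers, was the single gene of the 17 that fell. It measured 373, 398, 352 and 345 CPM in control replicates 1 to 4 and 331, 333, 297 and 289 CPM in the mimic replicates (367 ± 24.1 and 312 ± 22.9). The highest mimic library stayed below the lowest control library, and the log2 fold change was -0.23 ± 0.06 (adjusted p = 0.00858). Replicates 3 and 4 were the lower pair in both groups, with a log2 difference of -0.16 from replicates 1 and 2. The other scaffold, PSMD1, did not pass (0.07, adjusted p = 0.168). The ubiquitin receptor PSMD4 had a log2 fold change of 0.08 ± 0.03 and groups that did not overlap, and missed the threshold (adjusted p = 0.0558). It passed with the replicate block (adjusted p = 0.0311), in DESeq2, with a filter at a mean of 1 CPM and without mimic replicate 2 (adjusted p = 0.0461).

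The lid removes the ubiquitin chain before degradation. Of its 8 genes among the 43, 6 rose, 75.0% beside 23.7% of tested genes at or above 13.1 CPM. All 8 fold changes were positive (median 0.11). The deubiquitinase PSMD14 read 102, 103, 103 and 100.3 CPM in the controls and 112, 112, 110.0 and 110.5 CPM with the mimic, without overlap and with small spread, a log2 fold change of 0.12 ± 0.03 (adjusted p = 0.00759). PSMD12 rose by 0.19 ± 0.04, from 119.7 ± 5.15 to 137 ± 2.27 CPM (adjusted p = 0.00166). PSMD11, a lid subunit known to support assembly of the whole complex, rose by 0.19 ± 0.03, from 121 ± 3.29 to 138 ± 2.46 CPM (adjusted p = 0.000898).

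The other lid calls were weaker. PSMD3 (0.13 ± 0.04, adjusted p = 0.0189) and PSMD13 (0.11 ± 0.03, adjusted p = 0.0227) had no overlap between groups. Both lost the call without mimic replicate 1 (adjusted p = 0.0527 and 0.0567) and without control replicate 3 (0.0539 and 0.0667). PSMD7 (0.09 ± 0.03, adjusted p = 0.0482) had overlapping groups and was lost when any library other than mimic replicate 2 or control replicate 4 was left out, with adjusted p up to 0.115. It was also lost with upper-quartile normalisation (0.0559) and with no filter on low counts (0.0698). PSMD6 (0.09) and PSMD8 (0.03) did not pass.

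Among the 43 genes, 3 encode chaperones that assemble the regulatory particle, and of these 2 fell and none rose. PSMD5 showed the largest fall of the 43 genes. It measured 77.8, 74.2, 77.3 and 79.0 CPM in control replicates 1 to 4 and 59.5, 58.8, 60.01 and 58.9 CPM in the mimic replicates (77.1 ± 2.04 and 59.3 ± 0.574). The mimic values were nearly the same in all 4 libraries and well below every control, a log2 fold change of -0.38 ± 0.03 (adjusted p = 6.59e-06). PSMD10, also called gankyrin, measured 53.2, 54.2, 55.0 and 56.1 CPM in the controls and 51.5, 47.6, 48.5 and 48.6 CPM with the mimic, a fall of 0.16 ± 0.04 on the log2 scale (adjusted p = 0.00902). PSMD9, the third of these chaperones, had a log2 fold change of -0.01 ± 0.04 (adjusted p = 0.790).

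Of the 4 genes for alternative caps of the core, PSME3 and PSME4 rose. PSME4, which encodes a large nuclear activator, measured 162, 153, 166 and 159 CPM in the controls and 179.9, 185, 185 and 192 CPM with the mimic (160.3 ± 5.62 and 185 ± 4.81). The groups did not overlap, with a log2 fold change of 0.21 ± 0.04 (adjusted p = 0.000770). PSME3, the nuclear activator that works without ubiquitin, measured 251, 248, 236 and 239 CPM in the controls and 266, 264, 255 and 261 CPM with the mimic (244 ± 7.01 and 261 ± 4.6), a log2 fold change of 0.10 ± 0.03 (adjusted p = 0.0263). The groups did not overlap, but PSME3 no longer passed once mimic replicate 1 (adjusted p = 0.0577), control replicate 3 (0.0748) or control replicate 4 (0.0743) was left out. BECN1, which overlaps PSME3 on the opposite strand, rose by 0.11 as well. The interferon-inducible pair PSME1 (-0.09) and PSME2 (-0.02) did not pass, and PSME1 passed with the replicate block (adjusted p = 0.0376). PSMF1, first described as an inhibitor of the core, rose by 0.12 ± 0.03, from 125 ± 3.11 to 135 ± 1.67 CPM (adjusted p = 0.0133).

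The chaperones among the 43 genes that build the core, with 1 gene that rose and 1 that fell of 4, held the largest change. PSMG4, which helps to build the alpha ring together with PSMG3, was the least abundant tested gene of the 43. It measured 9.12, 10.0, 9.14 and 9.67 CPM in control replicates 1 to 4 and 17.2, 15.3, 17.8 and 16.8 CPM in the mimic replicates (9.48 ± 0.427 and 16.8 ± 1.08). The lowest mimic library was well above the highest control library, a 1.77-fold rise with a log2 fold change of 0.82 ± 0.07 (adjusted p = 2.37e-06). Its partner PSMG3 fell by 0.14 ± 0.04, from 39.3 ± 1.04 to 35.8 ± 0.839 CPM (adjusted p = 0.0195). That fall was lost without mimic replicate 1 (adjusted p = 0.0542), mimic replicate 3 (0.0609) or control replicate 4 (0.0612). The partners PSMG1 (-0.09) and PSMG2 (-0.08) did not pass, and PSMG1 passed with the replicate block (adjusted p = 0.0306).

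Exons of SLC22A23 and TUBB2B overlap PSMG4 on the opposite strand in GENCODE 29, a human gene annotation on GRCh38. SLC22A23 did not pass (59.0 ± 4.36 CPM in the controls and 57.2 ± 3.32 with the mimic), and TUBB2B rose from 8.70 ± 0.250 to 11.7 ± 1.07 CPM, a log2 fold change of 0.43. The part of reads from these genes in the PSMG4 values was not tested. Of the 43 tested genes, 17 have an exon overlap on the opposite strand in that annotation and 12 have a named pseudogene, so how shared reads were counted could affect their levels.

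**Figure D3:**
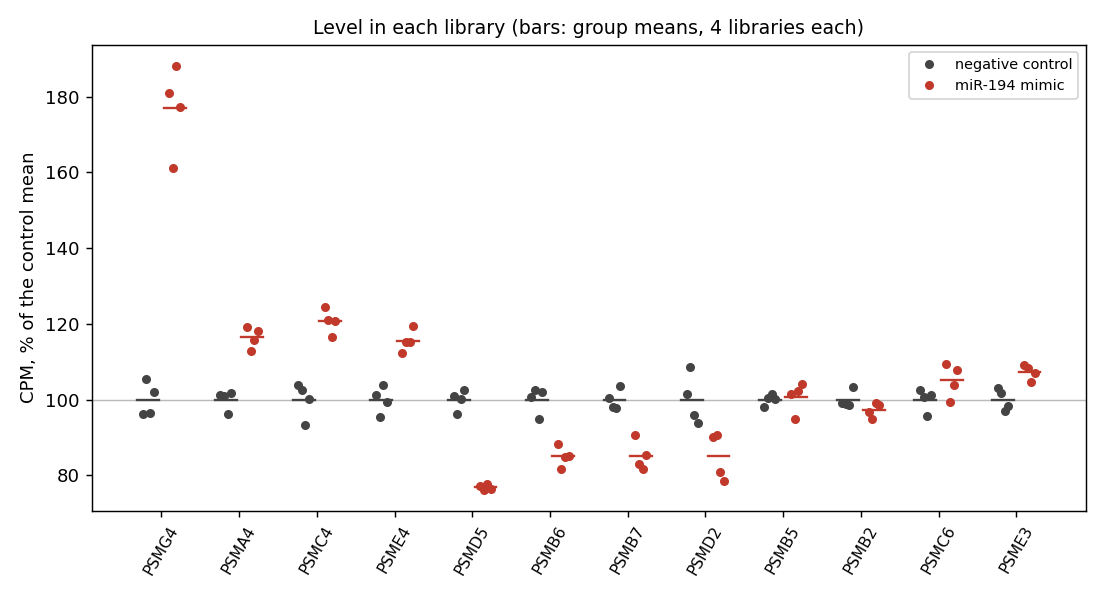
Level in each library as a percentage of the gene's control mean, for the 12 proteasome genes whose values are given library by library under the rule for named genes (points, libraries; bars, group means of 4). PSMG4 stands at 15.3 to 17.8 CPM against 9.12 to 10.0 CPM, PSMD5 is the tightest of the lower genes, and PSMB5, PSMB2 and PSMC6 overlap.

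The microRNA and the proteasome transcripts that match its seed are shown to set the changes beside the direct targeting route. The seed is bases 2 to 8, in capitals, as RefSeq gives the mature form, which is the same for MIR194-1 (chr1:220118206-220118227, minus strand) and MIR194-2 (chr11:64891404-64891425, minus strand) on GRCh38.p14.
hsa-miR-194-5p: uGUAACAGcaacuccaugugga
A transcript site for the whole seed reads CTGTTAC (7mer-m8), one for bases 2 to 7 followed by an A reads TGTTACA (7mer-A1), both together form the 8mer CTGTTACA, and TGTTAC alone is the 6mer. The longest 3' UTR of each gene in GENCODE 29 was searched on the transcript strand. None of the 42 tested proteasome genes with a 3' UTR had an 8mer, 2 had a 7mer-m8 and 2 a 7mer-A1, 9.52% in all beside 20.6% of 13438 tested genes for which a 3' UTR was annotated. Proteasome 3' UTRs are short, with a median of 381 bases beside 1383 bases.

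The 4 sites, with the match in capitals, lie in the 3' UTR exons of PSMB2 (chr1:35602397-35602403, minus), PSMC6 (chr14:52728536-52728542, plus), PSME3 (chr17:42841639-42841645, plus) and PSME4 (chr2:53864463-53864469, minus), on GRCh38.
PSMB2: taagagatattCTGTTACtgtgtaaagta
PSMC6: aaacatgatttCTGTTACctatacatgat
PSME3: ttgccttggttTGTTACAtgactatcgtg
PSME4: tttctttatctTGTTACAaaaactgagat
PSMB2 and PSMC6, with the longer seed match, did not pass the test, and PSME3 and PSME4 rose, so none of the 4 fell. Their median log2 fold change was 0.09, and that of the proteasome genes without such a site 0.08. Over all tested genes the medians were -0.12 with a site and 0.03 without.

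Of the 7 genes that fell, none had an 8mer or 7mer in the 3' UTR. PSMD5 had 3 copies of the 6mer in a 3' UTR of 1853 bases, at chr9:120817779-120817784, chr9:120817771-120817776 and chr9:120817080-120817085 (minus strand, GRCh38), of which the first pair lies close together.
PSMD5 first: ggaatgtcagaTGTTACtttgttaccaa
PSMD5 second: agatgttacttTGTTACcaacactgtta
PSMD5 last: tcttgttttttTGTTACtattattcctt
PSMD2 had 1 6mer in its 3' UTR of 164 bases (chr3:184309004-184309009, plus strand, tcctgctctttTGTTACtgagtgagata). The 6mer was the best 3' UTR match in 5 tested proteasome genes, 11.9%, beside 12.4% of all such genes. The other 3, PSMA5, PSMB5 and PSMD12, rose or did not pass. In the coding sequence, 6 proteasome genes had an 8mer or 7mer, 14.3% beside 13.3%. They were PSMB1, PSMD2 and PSMD5 among those that fell, PSMD11 and PSME4 among those that rose, and PSMA6, which did not pass. Their median log2 fold change was -0.03, and that of the proteasome genes without a coding match 0.08. Over all tested genes with a 3' UTR the medians were -0.07 with a coding match and 0.02 without. These differences were not tested.

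PSMG4, the gene with the largest rise, carried other short sequences, GACGTA and GACAGTA, which had been picked from a scan of these same fold changes and so support nothing here. They are shown because they are in the longest annotated 3' UTR of PSMG4, 4226 bases, at chr6:3265957-3265962, chr6:3264592-3264598 and chr6:3267641-3267647 (plus strand, GRCh38).
PSMG4 GACGTA: agctttaccgaGACGTAaacacatgtca
PSMG4 GACAGTA, first: agcaggcccatGACAGTAtgtggatagga
PSMG4 GACAGTA, second: ttcagaacacaGACAGTAacttcgcatta
With any annotated 3' UTR counted in place of the longest, PSMG4 also gained a 7mer-A1 miR-194 site. Only 2 of the 7 coding transcripts of PSMG4 with a 3' UTR hold GACGTA or GACAGTA, and which of them 22Rv1 cells use was not tested. The one other proteasome gene with either sequence was PSMA5, and the share was 4.76% of the proteasome genes beside 12.7% of all those searched.

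Promoters are shown because NFE2L1 is known to act on many proteasome genes. This factor is known to bind antioxidant response elements, whose core reads TGACNNNGC, where N is any base. RefSeq windows of 300 bases (250 before and 50 after the start, GRCh38.p14, both strands) were found for 39 of the 45 genes, and PSMA7, PSMB1, PSMB6, PSMB7, PSMD4 and PSMG3 had no entry. The core was found for 14 of the 39, 35.9%, beside 16.1% of all genes in the promoter table and 19.1% of tested genes. It was held by 6 of 15 genes that rose, 1 of 3 that fell and 7 of 19 that did not pass. Of the 7 genes that fell, 4 are without a promoter entry, so these counts give no comparison by direction. The windows below show the core, or its reverse complement, in capitals with its flanks for genes that rose, and for PSMD5, which fell.
PSMA4, 126 bases before the last of its 3 listed starts: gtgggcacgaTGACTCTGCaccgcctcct
PSMD12, 165 bases before the start: agacaaaaccTGACGCTGCaggctggagt
PSMD3, 37 bases before the start: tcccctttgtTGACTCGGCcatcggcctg
PSMC5, 57 bases before the last of its 2 listed starts: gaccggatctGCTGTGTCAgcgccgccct
PSME4, 34 bases before the start: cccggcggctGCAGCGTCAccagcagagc
PSMD5, 134 bases before the start: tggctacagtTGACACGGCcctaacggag
The cores lie at chr15:78540660-78540668, chr17:67366734-67366742, chr17:39980770-39980778, chr17:63827664-63827672, chr2:53971019-53971027 and chr9:120843048-120843056, in that order. PSMC4 had its match 28 bases after the start. A further motif, CCGGAAG, known as a binding sequence of ETS factors, was found for 15 of the 39, 38.5% beside 20.7% of tested genes, and the CCAAT box for 19, 48.7% beside 43.3%. The 39 include the untested PSMA8, which holds CCGGAAG, and the untested PSMB11, which holds the CCAAT box. CCGGAAG was present in 8 of the 15 genes that rose, 0 of the 3 that fell and 6 of the 19 that did not pass. With 4 of the 7 fallen genes missing, these counts also give no comparison by direction. A match is a run of letters and does not show that a factor was bound.

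Genes that work with the proteasome rose more often than they fell. Their lists were chosen for known function, but with earlier results of these data known. Of 50 tested, 27 rose and 4 fell, 54.0% and 8.0%, beside 18.3% and 19.9% of all tested genes. Over the tested genes at or above 13.1 CPM the shares were 23.7% and 22.6%. The median log2 fold change of the 50 was 0.11, beside 0.0017 over all tested genes and 0.0172 over those at or above 13.1 CPM. In the NFE2L1 route, 7 of 13 rose and 2 fell. NFE2L1 itself measured 210.3, 208, 231 and 217 CPM in the controls and 237, 249.6, 250.02 and 246 CPM with the mimic, without overlap and with a log2 fold change of 0.18 ± 0.04 (adjusted p = 0.00326). The largest change in these lists was in SEL1L, which holds the ubiquitin ligase SYVN1 in the membrane of the endoplasmic reticulum. SEL1L rose from 101 ± 2.45 to 199 ± 18.6 CPM (0.98 ± 0.06, adjusted p = 2.60e-07), while SYVN1 fell from 61.3 ± 1.45 to 43.1 ± 2.01 CPM (-0.51 ± 0.04, adjusted p = 3.73e-06). The 3' UTR of SYVN1 holds a 7mer-A1 site. Elsewhere in these lists, BACH1, UBXN7 and ZFAND5 hold an 8mer and PAAF1, UBA6 and UFD1L a 7mer-m8, and none of these passed the test. KEAP1 and PSMB9 fell without an 8mer or 7mer in the 3' UTR, but KEAP1 holds an 8mer in its coding sequence. Of the other genes in these lists, UBA1 holds a coding 7mer-m8, and UBQLN1, UBXN4 and USP14 a coding 7mer-A1. All 4 of them rose, and NGLY1, also with a coding 7mer-A1, did not pass. NFE2L3, a factor related to NFE2L1, rose by 0.52, and the partners MAFF and MAFK by 0.44 and 0.42. The protease DDI2, which cuts NFE2L1 into its active form, rose by 0.30. Mimic and control libraries overlapped for both MAFK and DDI2. NFE2L2 rose by 0.16, and its inhibitor KEAP1 fell by 0.18 on the log2 scale. NFE2L2 was lost without mimic replicate 1 (adjusted p = 0.0630) or control replicate 3 (0.0683), and DDI2 without mimic replicate 1 (0.0554).

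Shuttle factors, which carry ubiquitylated proteins to the complex, rose in 6 of 9 tested and fell in none. RAD23B rose from 391 ± 13.5 to 468 ± 7.40 CPM (0.26 ± 0.03, adjusted p = 8.63e-05). UBQLN2 rose from 71.2 ± 0.902 to 89.0 ± 1.41 CPM (0.32 ± 0.03, adjusted p = 1.32e-05). DDI2, ZFAND2A (0.24), UBQLN4 (0.14) and UBQLN1 (0.11) also rose, and UBQLN4 was lost without control replicate 3 (adjusted p = 0.0580) or control replicate 4 (0.0591). VCP, the ATPase that extracts ubiquitylated proteins, did not pass (0.06, adjusted p = 0.0975), while 7 of the 10 genes of VCP and its cofactors rose, FAF1 (0.24), UBXN1 (0.24), UBE4B (0.17), NPLOC4 (0.16), FAF2 (0.15), NSFL1C (0.13) and UBXN4 (0.09). UBXN4 was lost when any of mimic replicates 3 and 4 or control replicates 1, 2 and 4 was left out, with adjusted p up to 0.0899, and with no filter on low counts (0.0602). Of 6 genes for ubiquitin and its activation, the activating enzyme UBA1 (0.15) and RPS27A (0.20) rose. RPS27A was lost without mimic replicates 1, 3 or 4 or control replicate 3, with adjusted p up to 0.0679, and the ubiquitin gene UBB (-0.07) did not pass.

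Subunits, assembly and bound factors outside the PSM names gave 6 that rose and 1 that fell of 11. The ubiquitin receptor ADRM1 rose from 135 ± 9.63 to 154 ± 8.23 CPM (0.19 ± 0.05, adjusted p = 0.0174), and was lost without mimic replicate 1 (adjusted p = 0.0520), control replicate 3 (0.0547) or control replicate 4 (0.0501). POMP, the chaperone of beta ring assembly, rose from 132 ± 4.90 to 145 ± 7.86 CPM (0.14 ± 0.04, adjusted p = 0.0294), with overlapping groups. POMP was lost without mimic replicates 1 or 4 or control replicates 2 or 3, with adjusted p up to 0.0867. The ligase UBE3C (0.18) and the bound thioredoxin-like protein TXNL1 (0.16) rose. KIAA0368 (0.12) and the deubiquitinase USP14 (0.09) rose too, but KIAA0368 was lost without mimic replicates 2 or 4 or control replicates 1, 2 or 4 (adjusted p up to 0.0902) and USP14 without mimic replicate 1 or control replicates 2, 3 or 4 (up to 0.0822). USP14 was also lost with no filter on low counts (0.0505). Mimic and control libraries overlapped for ADRM1 and KIAA0368 as well. UCHL5, the deubiquitinase that ADRM1 holds on the complex, fell by 0.17 on the log2 scale, and was lost without mimic replicates 3 or 4 or control replicates 1 or 2 (adjusted p up to 0.0740). UCHL5 carries a 7mer-A1 site. The small subunit SHFM1 (-0.02) and PAAF1 (-0.05, adjusted p = 0.432) did not pass.

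**Figure D4:**
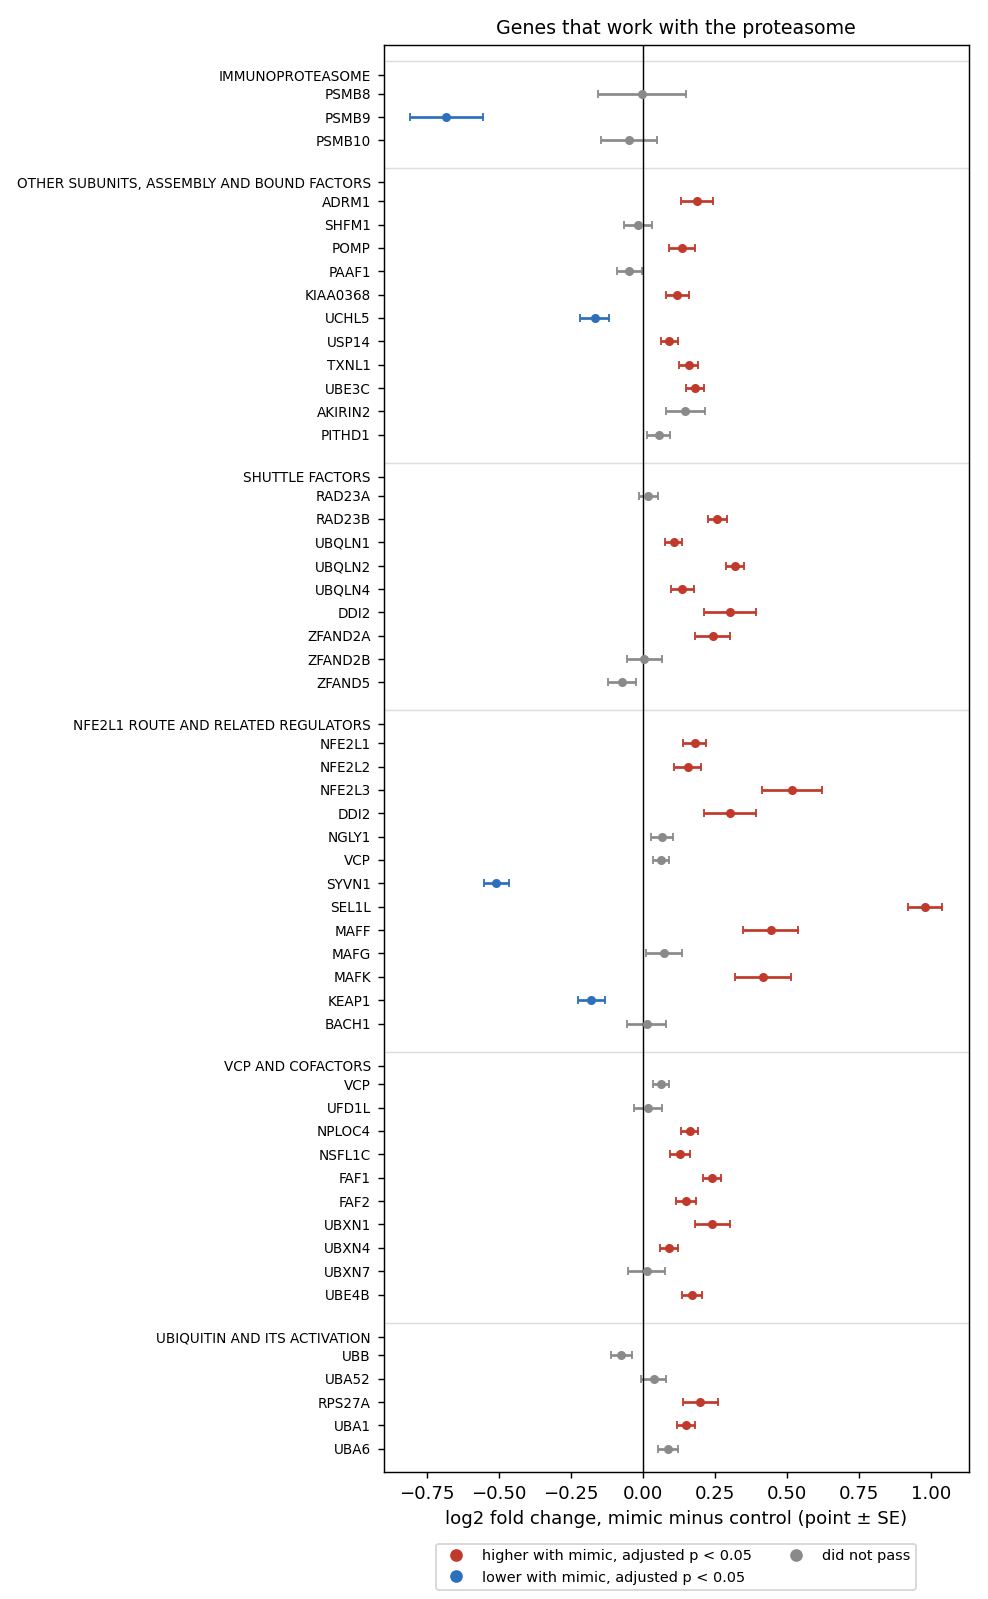
Log2 fold change, mimic minus control (point, bar ± SE), of tested genes that work with the proteasome, by list and coloured by the test; DDI2 and VCP appear in 2 lists, and 1 gene is not shown. SEL1L at 0.98 lies farthest right and PSMB9 at -0.68 farthest left.

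The immunoproteasome genes, left out by the rule, encode the interferon-induced replacements of the protease subunits and were low here. Per kilobase of transcript, in the control libraries, PSMB8 stood at 0.855 ± 0.113 CPM and its constitutive counterpart PSMB5 at 138 ± 1.87. PSMB9 stood at 5.83 ± 0.878 and PSMB6 at 229 ± 8.04 CPM per kilobase, and PSMB10 at 14.7 ± 1.22 and PSMB7 at 164 ± 4.48. The constitutive form was therefore far more abundant in each pair. PSMB9 measured 5.43, 4.30, 4.69 and 3.80 CPM in the controls and 3.2, 2.79, 2.45 and 2.89 CPM with the mimic, all mimic values below all controls, a log2 fold change of -0.68 ± 0.13 (adjusted p = 0.00128). PSMB8 (-0.0023) and PSMB10 (-0.05) did not pass.

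The pattern among the 22 changed proteasome genes held to different degrees. Under all 17 alternative settings, PSMA4, PSMC1, PSMC4, PSMC5, PSMD11, PSMD12, PSME4 and PSMG4 rose, and PSMB6, PSMB7, PSMD2 and PSMD5 fell. None of the 22 reversed its direction under any of these settings. Within replicates 1 and 2 alone 10 of the 43 rose and 8 fell, and within replicates 3 and 4 alone 10 rose and 5 fell. Over all genes tested in the same fits, 2368 rose and 2731 fell within replicates 1 and 2. Within replicates 3 and 4, 2391 rose and 2675 fell.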

How the data were processed

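The authors deposited raw read counts per gene symbol for 8 libraries. Per the submitters' processing notes, the tools were STAR, cutadapt 1.8.1, FastQC, edgeR 3.3 and R 3.2.3, with the build hg19. Which counter, gene models and strand setting were used is not given. The fit used edgeR 4.0.16 and R 4.3.3, with filterByExpr, TMM scaling, a robust quasi-likelihood fit on group, and Benjamini-Hochberg adjustment over all 14977 tested genes (threshold 0.05). SE is the log2 fold change over the square root of F. Alternatives were other normalisations and filters, DESeq2 1.42.0, limma-voom (limma 3.58.1), a replicate block, replicates 1 and 2 or 3 and 4 alone, and each library left out. Libraries with the same number shared deviations from the means of their groups (correlations 0.27, 0.34, 0.18 and 0.43), above the limit of 0.1 set for pairing, and the block was run as an alternative while the main fit stayed unpaired. Exchanged partners within replicates 1 and 2, and within 3 and 4, met it too. Within a group, libraries varied beyond counting error (chi-square over its degrees of freedom 3.64 to 16.8). Sites and promoters were searched in Python 3.11.15. The site and promoter sources, GENCODE 29 (GRCh38) and RefSeq (GRCh38.p14), differ in build from the counts, and the join was by symbol (20194 the same, 1460 by a synonym, 1692 unmatched). Values per library were given for the 4 smallest p in each direction, the catalytic subunits, the largest change and genes with an 8mer or 7mer site, and also for PSMD10, PSMD14, PSMB9 and NFE2L1, chosen after their values were seen. The members and lists were chosen with earlier results of these data known. The fit was tested on simulated data. Of the related genes, 1 is not reported here by name, and the counts of its list include it.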

Additional observations from a re-analysis of the deposited data

Results flagged for a closer look

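In 8 of 86 groups of 4 libraries (43 proteasome genes in each treatment), 1 library stood apart from the other 3, by a gap to its nearest neighbour above Dixon's 95% limit for the share of the whole range. Chance alone marks about 1 group in 20, but the 86 groups share the same 8 libraries and are not independent. Control replicate 3 was the low library for PSMA4 (234 CPM, gap 0.860 of the range), PSMB3 (149 CPM, 0.830), PSMB4 (376 CPM, 0.857) and PSME2 (124 CPM, 0.839). The proteasome genes as a group also took their lowest share of the counts in that library, 0.714%. Control replicate 4 was the high library for PSMB2 (272 CPM, 0.876) and PSMD4 (233 CPM, 0.935). For PSMD12, mimic replicate 2 was the high library at 140.4 CPM (0.922) and control replicate 2 the low one at 112 CPM (0.871). PSMD12 rose under each setting that left out 1 library.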

How the results depend on the processing

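The number of proteasome genes that rose ran from 10 to 20 over the alternatives, beside 15, and the number that fell from 5 to 9, beside 7. Leaving out 1 library gave 11 to 20 and 6 to 7. Over all tested genes, leaving out 1 library gave 2308 to 2729 that rose and 2543 to 2803 that fell. The median log2 fold change of the proteasome genes ran from 0.06 to 0.10 over the alternatives. With the replicate number as a block, 20 rose and 9 fell, and 3778 and 3838 of all tested genes rose and fell, beside 2737 and 2975. The block added 7 calls, given with those genes above, and changed no other call among the proteasome genes. The genes with an 8mer or 7mer numbered 4 in the longest 3' UTR and 5 in any annotated 3' UTR, the fifth being PSMG4. Values that changed sign belonged only to genes that did not pass. PSMB8 turned from -0.0023 to 0.0044 with upper-quartile normalisation, 0.0010 in DESeq2, 0.00053 in limma-voom and 0.0020 with the replicate block. Within replicates 1 and 2 alone PSMB5 was at -0.017. Within replicates 3 and 4 alone PSMA2 was at 0.013, PSMA7 at 0.0024, PSMB10 at 0.055, PSMB8 at 0.024, PSMD9 at 0.0039, PSME2 at 0.027 and SHFM1 at 0.037. With 1 library left out, PSMA2 ran from -0.041 to 0.012, PSMB5 from -0.0022 to 0.040, PSMB8 from -0.046 to 0.088, PSMB10 from -0.097 to 0.035, PSMD9 from -0.027 to 0.010, PSME2 from -0.036 to 0.014 and SHFM1 from -0.044 to 0.027. The cause of these turns was not tested. At these depths, with a median SE of 0.04 among the proteasome genes, the smallest change called was 0.09 on the log2 scale.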
